A study of Mus musculus with 6 samples.

Results

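The genes described here are 10 members of the chemokine system in mouse hepatic stellate cells: the ligand genes Cxcl12, Ccl2, Ccl7, Cxcl1, Cxcl5, Cxcl10, Cxcl16 and Cx3cl1, and Cxcr4 and Ackr3, which encode both receptors of CXCL12. They were taken by gene symbol from a table of 24940 genes. Hepatic stellate cells wrap the liver sinusoids as pericytes and store vitamin A. They were isolated from wild-type female mice of the strain written as C57BL/6JBomTac or C57BL6/JBomTac, and on day 2 after isolation received either 10 µM obeticholic acid (OCA), a bile acid derivative that activates the nuclear receptor FXR, or its vehicle DMSO at 1:1000. Both groups were given 500 nM vasoactive intestinal peptide (VIP), a neuropeptide that signals through cAMP, 3 h later and were lysed after another 3 h. The groups DMSO+VIP and OCA+VIP held 3 libraries of polyadenylated RNA each. Every library had VIP, so each comparison is of OCA against vehicle in VIP-treated cells. Nothing in the labels states whether replicate libraries came from different mice or dishes. The p-values then cover only the spread seen among these libraries, and part of it may be technical.

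Chemokines are small secreted proteins that direct the movement of cells through G protein-coupled receptors. They are classed by the spacing of their first cysteines into CC, CXC and CX3C types. CXCL12 is made by stromal cells and pericytes and signals through CXCR4, while ACKR3 binds and removes it without classical G protein signalling. CCL2 and CCL7 draw monocytes through CCR2, CXCL1 and CXCL5 draw neutrophils through CXCR2, and CXCL10 draws activated T cells through CXCR3. CXCL16 and CX3CL1 are made as membrane-bound proteins from which proteases release soluble forms. In liver injury, stellate cells are known as one source of these signals.

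Upstream sequences are shown for the member with the largest fall (Cxcl12), the member that rose (Cxcl10) and an inflammatory CXC member that did not pass the test (Cxcl1), because known control elements of such genes lie close to the start. They are the 250 bases before the RefSeq start of transcription (GRCm38.p6), read 5′ to 3′ on the strand of the gene. The windows are chr6:117168285-117168534 (plus strand) for Cxcl12, chr5:92348890-92349139 (minus strand) for Cxcl10 and chr5:90890995-90891244 (plus strand) for Cxcl1. Capitals mark motif matches.
Cxcl12: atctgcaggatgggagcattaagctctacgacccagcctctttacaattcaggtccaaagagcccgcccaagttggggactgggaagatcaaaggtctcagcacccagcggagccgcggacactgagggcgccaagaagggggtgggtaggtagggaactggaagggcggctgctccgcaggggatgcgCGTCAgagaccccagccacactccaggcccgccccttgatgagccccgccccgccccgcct
Cxcl10: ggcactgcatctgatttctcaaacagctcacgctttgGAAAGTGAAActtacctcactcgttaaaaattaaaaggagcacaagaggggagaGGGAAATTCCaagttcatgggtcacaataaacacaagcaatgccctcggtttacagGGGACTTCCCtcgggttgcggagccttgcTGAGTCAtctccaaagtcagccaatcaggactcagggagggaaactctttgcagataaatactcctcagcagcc
Cxcl1: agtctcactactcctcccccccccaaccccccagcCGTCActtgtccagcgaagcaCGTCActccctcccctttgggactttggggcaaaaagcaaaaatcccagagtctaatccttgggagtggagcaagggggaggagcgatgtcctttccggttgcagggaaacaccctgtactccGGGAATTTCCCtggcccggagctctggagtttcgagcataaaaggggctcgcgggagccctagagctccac

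Both strands were searched for 6 motifs: the NF-kB consensus, the interferon-stimulated response element (ISRE) core, the cAMP response element TGACGTCA, its half-site TGACG, the AP-1 site TGANTCA and the FXR inverted repeat. The half-site lies inside the full cAMP element. Before Cxcl10, bases -213 to -204 matched the ISRE core, -159 to -150 and -103 to -94 the NF-kB consensus, and -74 to -68 the AP-1 site, where -1 is the base just before the start. Before Cxcl1, the 2 NF-kB matches overlapped between -71 and -61, and cAMP half-sites lay at -215 to -211 and -194 to -190. The window of Cxcl12 held 1 half-site, at -61 to -57. In the windows of Cx3cl1, Cxcr4 and Ackr3, the other members in the RefSeq promoter table, no motif matched. None of the 6 windows matched the full cAMP element or the FXR repeat, which says only that these letters are not in these windows. Among 32851 promoter windows of the same length, 3.9% held the NF-kB consensus, 2.98% the ISRE core, 17.8% the half-site, 6.75% the AP-1 site, 1.55% the full cAMP element and 0.00609% the FXR repeat. A match is a description of the letters and not evidence of binding. Ccl2, Ccl7, Cxcl5 and Cxcl16 are not in the promoter table used.

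**Figure D1:**
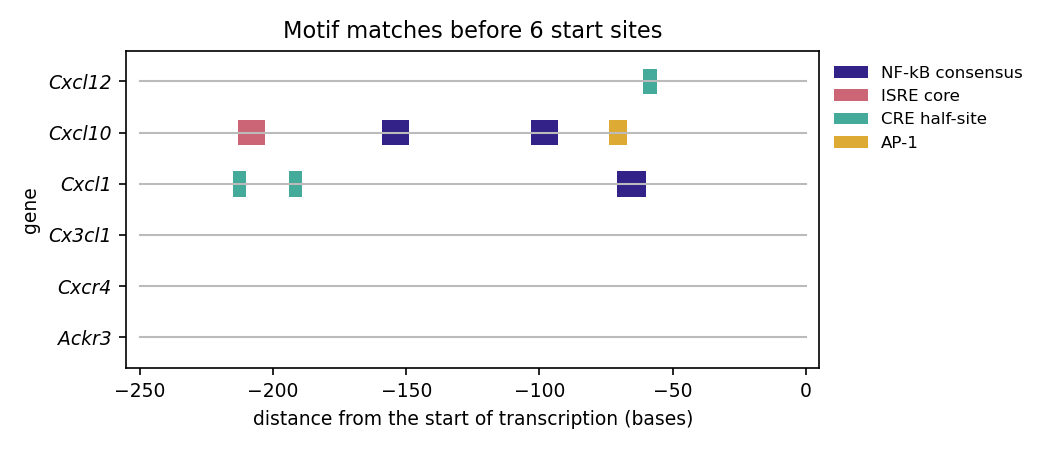
Motif matches in the 250 bases before the start of transcription of 6 genes. The x axis is the distance from the start in bases, each grey line is one window and coloured blocks are matches on either strand. The window of Cxcl10 holds an ISRE core, 2 NF-kB matches and an AP-1 match, and that of Cxcl12 holds 1 cAMP half-site.

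Column totals ranged from 2.84e+06 to 4.57e+06 counts in DMSO+VIP and from 4.53e+06 to 9.95e+06 in OCA+VIP. Low counts lay mostly within 0.5 of a multiple of 3: 65.4% of them in OCA+VIP library 2, the deepest, and 82.9% to 87.5% in the others. Many counts in steps of 0.5 would lie there without any larger step, and no baseline share was computed. A step of 6 counts was assumed, although counts of 3, 7 and 11 also occurred among the genes described. A sum of 3 steps over a group, 18 counts, was therefore used as the limit that a count of 0 allows. It corresponds to 1.61 CPM (counts scaled by the column total) over DMSO+VIP and 0.887 CPM over OCA+VIP and covers counting error only. Of the 10 genes, 7 had enough counts for the test of 11286 genes, and Cxcr4, Ackr3 and Cxcl5 did not.

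With OCA, RNA of Cxcl12 and of the monocyte chemokine gene Ccl7 fell 2.61-fold and 2.18-fold, and RNA of the interferon-inducible chemokine gene Cxcl10 rose 2.04-fold. Ccl2, Cxcl1, Cxcl16 and Cx3cl1 did not pass the test. The count of 3 called among 7 tested, 2 lower and 1 higher, stands beside 11.8% of all tested genes called in either direction (5.72% higher and 6.04% lower, quasi-likelihood test of edgeR, adjusted p under 0.05 by the Benjamini-Hochberg method). The median log2 fold change of the 7 was -0.25, against 0.00105 over all tested genes. In bulk RNA, fewer cells that express a gene and less RNA per cell cannot be told apart.

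Cxcl12 (chromosome 6, 117168535 to 117181368, mm10, plus strand) had the highest CPM of the members. It stood at 1474, 1642 and 1408 CPM in DMSO+VIP libraries 1 to 3 and at 498, 637 and 623 CPM in OCA+VIP libraries 1 to 3. The lowest vehicle library was thus above the highest OCA library, with no overlap, as for 30.6% of all tested genes (13.9% with OCA below vehicle). The means were 1508 ± 121 and 586 ± 76.8 CPM (SD, n = 3 each), and the fitted change was -1.38 on the log2 scale (SE 0.13, edgeR adjusted p = 6.0e-07). Its log2 fold change stayed between -1.43 and -1.31 when each library was left out in turn. No other gene of the GENCODE annotation shares exon bases with the transcript that was counted.

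The genes whose profile over the 6 libraries lay nearest to that of Cxcl12, among 9033 others with a mean of at least 10 CPM, were Phldb2, Adamts1 and Hilpda. Likeness was the root mean square distance between log2 CPM values centred on each gene's mean, which was 0.0933 for Phldb2, 0.102 for Adamts1 and 0.105 for Hilpda. Phldb2, which encodes a protein of cortical microtubule anchoring, went from 505 ± 1.33 to 206 ± 39.5 CPM. Adamts1, a secreted protease that cleaves proteoglycans, went from 2178 ± 64.2 to 929 ± 63.5 CPM, and Hilpda, a lipid droplet protein, from 384 ± 26.9 to 169 ± 24.4 CPM. All 3 were lower with OCA (edgeR adjusted p at most 1.5e-06), which the distance takes in.

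**Figure D2:**
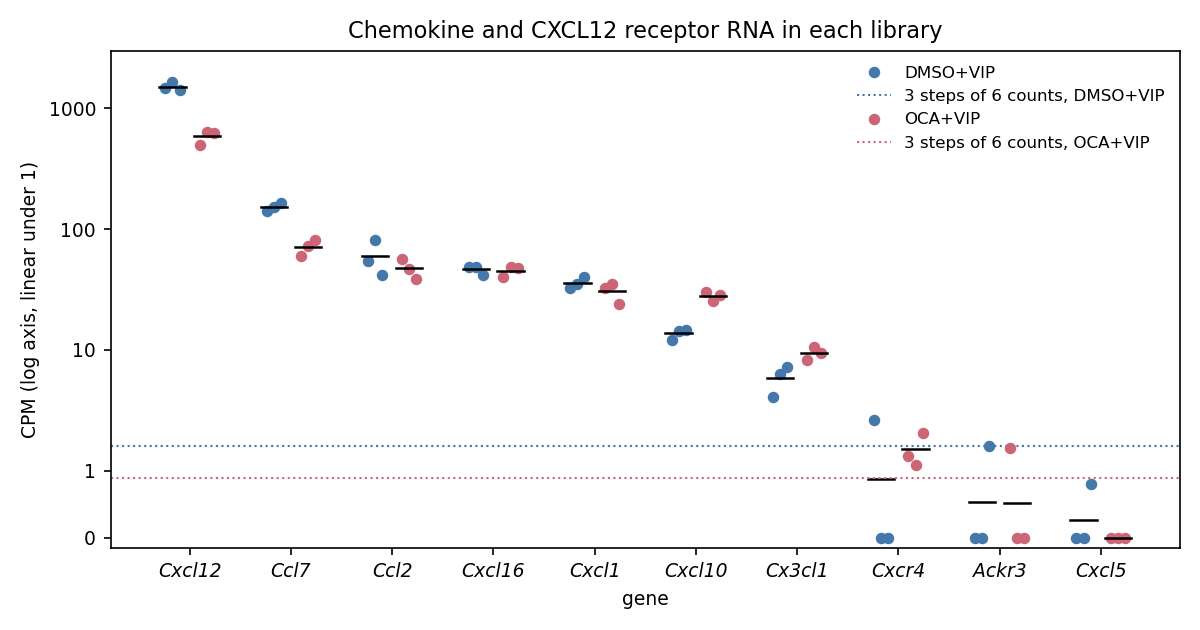
RNA level of the 10 genes in CPM, on a log axis that is linear under 1. Points are single libraries, black bars are means of 3, and dotted lines mark the level of 3 steps of 6 counts pooled over each group (1.61 CPM for DMSO+VIP and 0.887 CPM for OCA+VIP). Cxcl12, Ccl7, Cxcl10 and Cx3cl1 have groups that do not overlap, as for 30.6% of all tested genes. Cxcr4, Ackr3 and Cxcl5 have libraries at 0.

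The CC chemokine genes Ccl2 and Ccl7 lie side by side on chromosome 11, at 82035577 to 82037452 and 82045712 to 82047523 (mm10). Ccl7 had 140, 154 and 166 CPM in DMSO+VIP libraries 1 to 3 and 60.2, 72.8 and 80.7 CPM in OCA+VIP libraries 1 to 3. All OCA libraries were below all vehicle libraries, as for 13.9% of all tested genes. The fitted log2 change of Ccl7 was -1.12 (SE 0.14) with an edgeR adjusted p of 1.1e-05. Ccl2 had 54.7, 81.9 and 42.1 CPM with vehicle and 56.8, 46.7 and 38.4 CPM with OCA, so its groups overlapped. Vehicle library 2 stood above the other 5 libraries. The log2 fold change of Ccl2 was -0.34 with a 95% confidence interval of -0.80 to 0.12 (edgeR adjusted p = 0.36), and -0.04 without DMSO+VIP library 2. The data thus leave room for no change and for a fall of more than the fitted size.

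Whether the neighbours Ccl7 and Ccl2 responded differently was tested on their ratio per exon length in each library. The ratio was 2.59, 1.90 and 3.98 with vehicle and 1.07, 1.57 and 2.12 with OCA. The groups overlapped, and an exact two-sided permutation test over the libraries gave p = 0.20 (smallest possible 0.10, adjusted p = 0.20 over 4 ratios). With 3 libraries against 3 the test cannot pass 0.05, so whether these neighbours differ in response is not known from it. The next CC genes on the chromosome, Ccl11, Ccl12, Ccl8 and Ccl1, which end at 82179812, had a count of 0 in all 6 libraries.

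Cxcl10 (chromosome 5, 92346639 to 92348889, minus strand) had 12.0, 14.3 and 14.7 CPM in DMSO+VIP libraries 1 to 3 and 29.99, 25.3 and 28.7 CPM in OCA+VIP libraries 1 to 3. Every OCA library exceeded every vehicle library, as for 16.8% of all tested genes, and no other called member rose. The log2 fold change was 1.03 (SE 0.28, 95% confidence interval 0.45 to 1.61, edgeR adjusted p = 0.018). The call was lost when DMSO+VIP library 1 was left out (edgeR adjusted p = 0.068), and when OCA+VIP library 1 or 3 was (0.082 and 0.075) and in DESeq2 on counts divided by 6 (adjusted p = 0.19). The log2 fold change was 0.93 to 1.03 in these fits. Art3, on the opposite strand, shares 12.16% of its exon bases, and whether reads were counted by strand is not given in the sources used here. Of its neighbours on chromosome 5, Cxcl9 had no counts and Cxcl11 had 3 counts in all.

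The neutrophil chemokine gene Cxcl1 (chromosome 5, 90891245 to 90893115), whose NF-kB match is shown above, had 32.6, 35.4 and 39.9 CPM with vehicle and 32.3, 35.0 and 24.1 CPM with OCA in libraries 1 to 3. The first and second OCA libraries lay within or just under the vehicle range, and OCA+VIP library 3 was lower. Its log2 fold change was -0.25 with a 95% confidence interval of -0.71 to 0.21 (edgeR adjusted p = 0.52). Cxcl5 (chromosome 5, 90759298 to 90761625), the other ligand of CXCR2 among the members, had 3 counts in DMSO+VIP library 3 and none elsewhere. It was under the limit of 18 counts in both groups, so a change was not detectable at this depth.

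Of the membrane-bound chemokines, Cxcl16 (chromosome 11, 70454389 to 70459984) had 48.8, 48.8 and 41.5 CPM with vehicle and 40.4, 48.4 and 47.5 CPM with OCA, ranges that overlapped almost fully. The log2 fold change was -0.04, with a 95% confidence interval of -0.42 to 0.34 (edgeR adjusted p = 0.92). This interval holds changes of up to about that size in either direction. Zmynd15, on the opposite strand, shares 18.27% of the exon bases of all annotated Cxcl16 transcripts.

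Cx3cl1, encoding fractalkine (chromosome 8, 94772180 to 94782426), had 4.04, 6.34 and 7.23 CPM with vehicle and 8.27, 10.5 and 9.47 CPM with OCA. Its 3 OCA libraries were above its 3 vehicle libraries, which holds for 16.8% of tested genes. At 63.5 counts over the vehicle group the estimate was wide. The log2 fold change was 0.68 (SE 0.51, 95% confidence interval -0.38 to 1.75) and did not pass the test (edgeR adjusted p = 0.43).

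**Figure D3:**
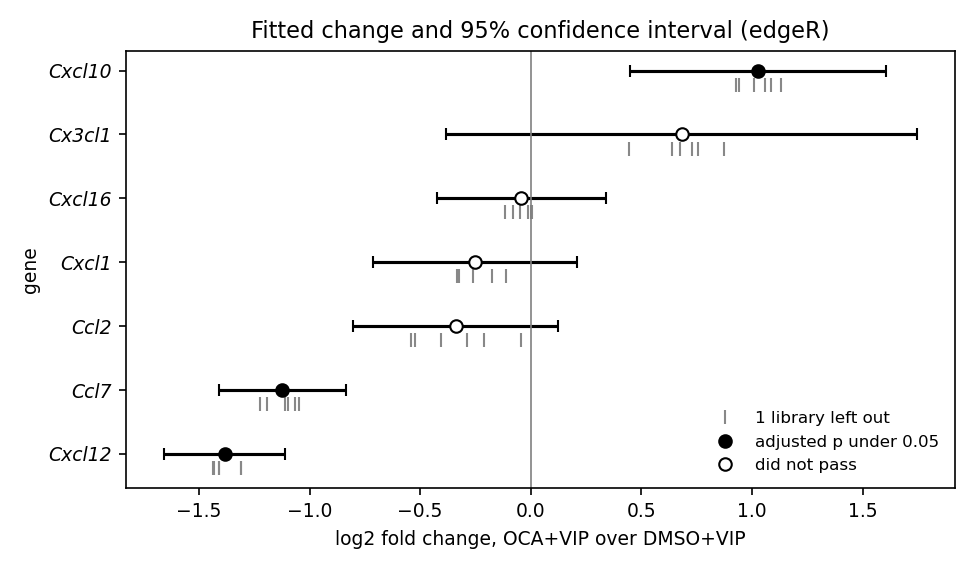
Fitted log2 fold change (x axis) of the 7 tested genes, OCA+VIP over DMSO+VIP. Circles are edgeR estimates with 95% confidence intervals, filled where the adjusted p is under 0.05, and grey ticks are estimates with 1 library left out. The intervals of Cxcl12, Ccl7 and Cxcl10 lie away from 0, and 1 tick of Ccl2 lies at -0.04.

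RNA of both CXCL12 receptors was near or under the detection limit, in contrast to the ligand. Cxcr4 (chromosome 1, 128588199 to 128592299) had 12, 0 and 0 counts in DMSO+VIP libraries 1 to 3 and 6, 11 and 12 counts in OCA+VIP libraries 1 to 3. These are 2.62, 0 and 0 CPM and 1.32, 1.11 and 2.07 CPM, so the groups overlapped and the vehicle group was under the limit of 18 counts. Ackr3 (chromosome 1, 90203980 to 90215722) had 6 counts in DMSO+VIP library 3 and 7 counts in OCA+VIP library 1, and was at 0 in the other 4 libraries. Without a filter on low counts, the edgeR adjusted p was 0.87 for Cxcr4, 0.99 for Ackr3 and 0.50 for Cxcl5. Regulation of these 3 genes was not detectable at this depth.

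Per exon length, the order of the 7 tested members was the same in both groups: Cxcl12, Ccl7, Ccl2, Cxcl1, Cxcl16, Cxcl10 and Cx3cl1. By group mean, the first 6 also held the 6 highest levels among the 41 chemokine ligand genes of the table, of which 18 had any count. With vehicle, however, Cxcl10 (12.5 CPM per kb) overlapped Ccl25 (10.3 CPM per kb), Pf4 (7.78 CPM per kb) and Cxcl14 (7.47 CPM per kb). Ccl25 or Pf4 stood above Cxcl10 in every vehicle library, and Ccl25, Pf4 and Cxcl14 stood below it in every OCA library. Among the 7 tested members, no neighbours in the order above overlapped with vehicle. Cxcl12 had 266 ± 21.3 and Ccl7 193 ± 16.2 CPM per kb of exon. With OCA, Cxcl12 (103 ± 13.6 CPM per kb) and Ccl7 (89.7 ± 13.02 CPM per kb) overlapped. So did Cxcl1 (32.3 ± 6.00 CPM per kb) with Cxcl16 (26.9 ± 2.61 CPM per kb) and Cxcl16 with Cxcl10 (25.6 ± 2.20 CPM per kb). The level of Cxcl12 depends on the transcript taken, because the counted one has 5664 exon bases and GENCODE also lists one of 1878 bases. On that length, it would be 803 ± 64.3 CPM per kb with vehicle and 312 ± 40.9 CPM per kb with OCA.

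The summed level of the 41 ligands, given without a test, was 648 ± 46.4 CPM per kb with vehicle and 390 ± 19.2 CPM per kb with OCA (SD, n = 3 each). The 3 vehicle libraries had 617, 702 and 627 CPM per kb and the 3 OCA libraries 368, 403 and 399 CPM per kb, with no overlap. Cxcl12 made up 42.2%, 41.3% and 39.7% of this sum with vehicle and 23.9%, 27.9% and 27.5% with OCA. These values also rest on the counted transcript: with Cxcl12 on the short one, the sum would be 1185 ± 87.7 and 599 ± 46.5 CPM per kb and the share of Cxcl12 67.7% ± 1.16 and 52.0% ± 2.92. On the counted transcript, the share of Ccl7 was 29.9% ± 3.05 and 22.9% ± 2.43, and that of Cxcl10 was 1.93% ± 0.194 and 6.59% ± 0.851. With Cxcl12 on the short one, Ccl7 would have 16.4% ± 1.89 with vehicle and 14.9% ± 1.27 with OCA. Cxcl10 would have 1.06% ± 0.121 and 4.31% ± 0.680. The size of the fall in the Ccl7 share thus depends on the Cxcl12 transcript taken. The shares of a fixed sum move against each other, so the share of Cxcl16 was 4.25% ± 0.394 and 6.89% ± 0.339 at a level that did not pass the test.

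Within a library, the ratio of Cxcl12 to Cxcl10 per exon length was 23.7, 22.2 and 18.5 with vehicle and 3.20, 4.86 and 4.19 with OCA. The ratio does not depend on how libraries are scaled. Its groups did not overlap, and the exact permutation test reached its smallest possible p of 0.10 (adjusted p = 0.13 over 4 ratios). Cxcl12 and Cxcl10 were already separated in opposite directions in the same libraries. The separation of their ratio was therefore fixed in advance and adds no support. The ratios of Cxcl12 to Ccl2 (2.84 to 4.73 with vehicle and 1.24 to 2.29 with OCA) and of Cxcl12 to Cxcl1 (5.87 to 7.72 and 2.56 to 4.30) gave the same exact p. With 3 libraries against 3, none of these tests can pass 0.05. Cxcl12 was already separated on its own in the same libraries, so the ratios to Ccl2 and Cxcl1 add no support beyond its fall. All ratios of Cxcl12 use the counted transcript and would be higher on the short one, by the same factor in both groups.

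**Figure D4:**
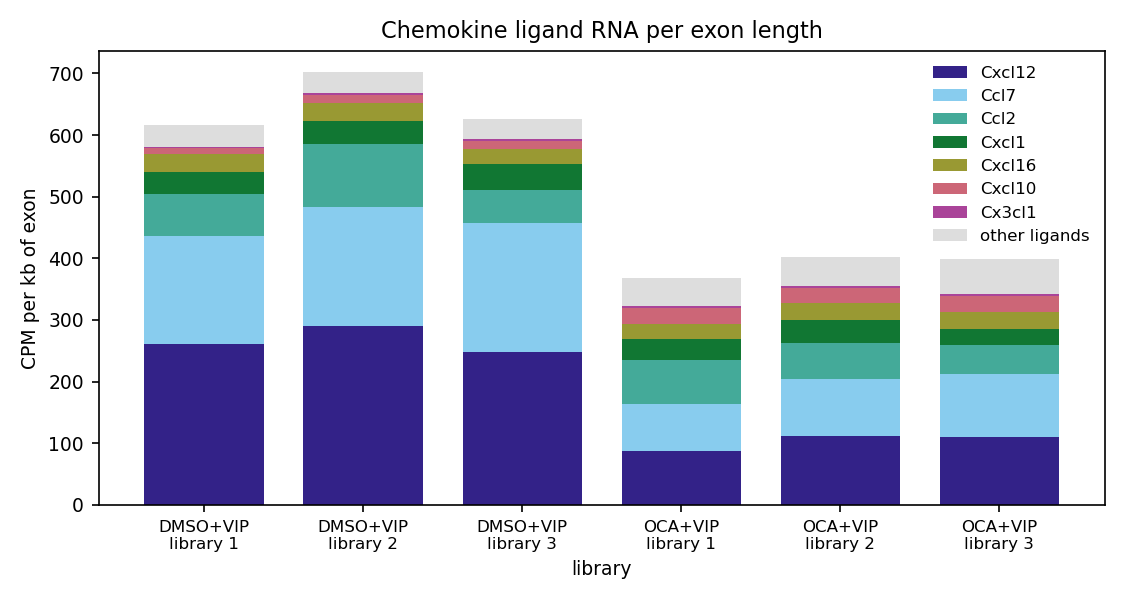
Stacked level of chemokine ligand RNA in each library, in CPM per kb of exon. Colours are the 7 tested members, and grey is the sum of all other ligand genes. The bars of DMSO+VIP reach 617 to 702 CPM per kb and those of OCA+VIP 368 to 403 CPM per kb, with the largest loss in the Cxcl12 and Ccl7 segments.

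Of 33 other chemokine ligand genes, 23 had a count of 0 in all 6 libraries and 5 could be tested. None of the 5 passed the test in edgeR, 2 had an unadjusted p under 0.05, and 0 passed in DESeq2 or limma-voom on the same genes. The 5 are named after their values were seen. Cxcl2, next to Cxcl1 on chromosome 5 and encoding a ligand of the same receptor, had 7.32, 0 and 3.35 CPM with vehicle and 14.1, 10.0 and 7.15 CPM with OCA (edgeR adjusted p = 0.19). Its groups overlapped by the first vehicle library. Ccl27a was at 3.61 ± 0.541 CPM with vehicle and 0.546 ± 0.519 CPM with OCA (edgeR adjusted p = 0.13), a difference called only by DESeq2 without a filter among the fits run. Ccl25, Pf4 and Cxcl14 had adjusted p of 0.64, 0.51 and 0.93 in edgeR.

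Of 22 other chemokine receptor genes, 10 had no counts, among them Ccr2, the receptor of CCL2 and CCL7, Cxcr2 and Cxcr3. The 2 that could be tested, named after their values were seen, were Ccrl2 and Cx3cr1. Neither passed in edgeR, DESeq2 or limma-voom on the tested genes. An unadjusted p under 0.05 was found for 1 in edgeR, 1 in DESeq2 and 2 in limma-voom. Ccrl2, an atypical receptor that presents chemerin, had 23.4 ± 2.18 CPM with vehicle and 13.5 ± 5.37 CPM with OCA (edgeR adjusted p = 0.10), and DESeq2 without a filter called it lower. Cx3cr1, the receptor of CX3CL1, had 8.97 ± 4.26 and 4.09 ± 2.35 CPM (edgeR adjusted p = 0.25).

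Among genes of receptor signalling and ligand processing, 2 of 23 tested were called lower and 0 higher, while 21 did not pass, with a median log2 fold change of -0.13. Of all tested genes, 6.04% were called lower and 11.8% either way, so this count is near the background. Both that fell encode G protein-coupled receptor kinases, which phosphorylate active receptors and end their signal. Grk5 (chromosome 19, 60889749 to 61092555) had 78.0, 52.5 and 64.6 CPM with vehicle and 35.7, 37.6 and 31.7 CPM with OCA in libraries 1 to 3. All OCA values were below the vehicle values, as for 13.9% of all tested genes. The fitted log2 change of Grk5 was -0.91 (SE 0.19) with an edgeR adjusted p of 0.0024. Grk6 fell by 0.86 on the log2 scale (SE 0.19) with an edgeR adjusted p of 0.0036, and its call was lost without DMSO+VIP library 1 (adjusted p = 0.057), its highest library. The count of called genes in this signalling and processing list was then 1, and it was 4 without OCA+VIP library 2. Grk2, Arrb1 and Arrb2, the kinase and arrestins of most chemokine receptors, did not pass (log2 fold changes of 0.04, -0.21 and -0.13). Neither did the sheddase genes of CXCL16 and CX3CL1, Adam10 (0.03) and Adam17 (0.40, edgeR adjusted p = 0.053). These 5 were chosen after their values were seen. Adam17 had 89.4, 85.4 and 95.1 CPM with vehicle and 125, 119 and 117 CPM with OCA. Its groups did not overlap, with OCA above vehicle as for 16.8% of all tested genes. It was called higher under library-size scaling, in edgeR on counts divided by 6 and in DESeq2 without a filter. The same held without OCA+VIP library 2 and at a threshold of 0.1.

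Of 30 tested genes for receptors and transcription factors that induce chemokines, 3 were called lower, 2 higher and 25 neither way, with a median log2 fold change of -0.11. Over all tested genes, 5.72% were called higher and 6.04% lower, so few more inducers were called than that background gives. Tnfrsf1b, encoding the second TNF receptor, had 398, 331 and 347 CPM with vehicle and 214, 257 and 206 CPM with OCA. Its OCA values were all below its vehicle values, as for 13.9% of all tested genes (log2 fold change of Tnfrsf1b -0.69, edgeR adjusted p = 0.00058). Cebpb, a transcription factor of inflammatory genes, went from 305 ± 21.7 to 171 ± 22.3 CPM (log2 fold change -0.85, edgeR adjusted p = 0.00012). Tmem189, on the opposite strand, shares 20.74% of its exon bases. Ifnar2, a chain of the type I interferon receptor, had a log2 fold change of -0.46, while Rela, the NF-kB p65 subunit, and Myd88, the adaptor of Toll-like and IL-1 receptors, rose by 0.39 and 0.47 on the log2 scale.

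The calls of Ifnar2, Rela and Myd88 lay close to the threshold (edgeR adjusted p = 0.031, 0.036 and 0.041). That of Ifnar2 was lost without DMSO+VIP library 1 or any 1 OCA+VIP library (adjusted p up to 0.17). That of Rela was lost without DMSO+VIP library 2 or 3 or OCA+VIP library 1 or 3 (adjusted p up to 0.15). That of Myd88 was lost without any library but OCA+VIP library 2 (adjusted p up to 0.22). Under upper-quartile scaling the adjusted p of Rela was 0.058 and that of Myd88 0.061. The number of called inducers was 3 without DMSO+VIP library 2 or 3 and 2 without OCA+VIP library 1 or 3. Other genes share exon bases with Ifnar2 (Gm21970, 10.34%) and Myd88 (Acaa1a, 11.38%).

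**Figure D5:**
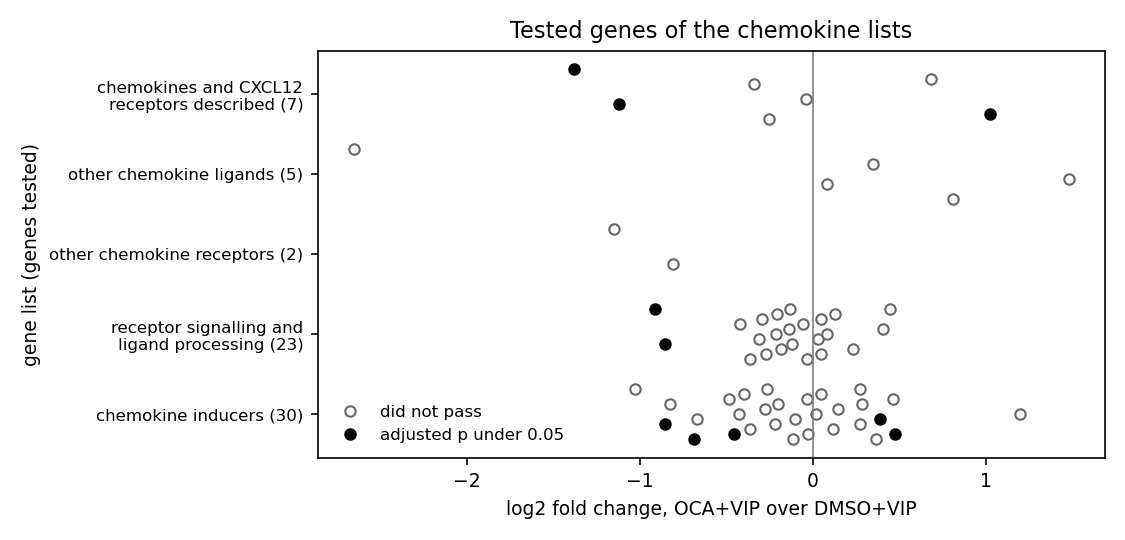
Log2 fold change (x axis) of the tested genes in each chemokine list, with the number tested in brackets. Each circle is a gene, filled where the edgeR adjusted p is under 0.05, and the vertical scatter within a list carries no value. The 2 filled genes of receptor signalling are Grk5 and Grk6, and the 2 other ligand and receptor lists hold no filled gene.

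Markers of the cell types that a stellate cell culture could hold were read in the same libraries. All 12 stellate cell markers were detected well enough to test, with a summed level of 811 to 1058 CPM with vehicle and 962 to 1082 CPM with OCA. Of these, Colec11, Dcn and Ecm1 rose and Des and Hgf fell. The 13 hepatocyte markers summed to 72.4 to 82.0 CPM with vehicle and 245 to 403 CPM with OCA, while Cps1 and Tat were at 0. In edgeR 8 of 9 tested rose, beside 5.72% of all tested genes called higher. In DESeq2 8 of the 9 passed and in limma-voom 6. The part of hepatocyte RNA in the rise of Cxcl10 was not tested. The 12 endothelial markers, a cell type known to express Cxcl12, summed to 21.4 to 39.8 CPM with vehicle and 18.7 to 33.6 CPM with OCA. The median log2 fold change of the 4 tested was 0.60, and only Egfl7 passed, falling from 25.5 ± 7.17 to 10.8 ± 2.32 CPM. Pecam1, Stab1 and Tek did not pass (log2 fold changes of 1.89, 0.46 and 0.73, edgeR adjusted p = 0.24, 0.77 and 0.79). Pecam1 had 1.31, 2.11 and 0 CPM with vehicle and 4.08, 4.22 and 4.39 CPM with OCA. Its OCA values were all above its vehicle values, as for 16.8% of all tested genes, while Lyve1, Fcgr2b and Emcn were at 0. The part of endothelial RNA in the fall of Cxcl12 was not tested. The 13 Kupffer cell and macrophage markers summed to 15.3 to 37.6 and 28.3 to 43.4 CPM, with none of 2 tested called in edgeR, DESeq2 or limma-voom and 1 at an unadjusted p under 0.05 in edgeR. Of this list, C1qa, C1qb, C1qc, Vsig4, Timd4 and Ptprc were at 0 in all 6 libraries. Cd68 had 20.5 ± 5.61 CPM with vehicle and 30.6 ± 5.92 CPM with OCA (edgeR adjusted p = 0.19). Csf1r, Adgre1, Clec4f, Cd5l, Marco and Tyrobp had low counts in some libraries. The 8 cholangiocyte and mesothelial markers summed to 6.16 to 14.9 and 17.3 to 21.01 CPM, with none of 2 tested called, or at an unadjusted p under 0.05, in edgeR, DESeq2 or limma-voom, and Krt7, Msln, Upk3b and Upk1b at 0. Of 10 neutrophil and lymphocyte markers, 9 were at 0. The other, the B cell gene Cd79a, was at 0 with vehicle and at 3.67 to 8.35 CPM with OCA, and was called higher (edgeR adjusted p = 0.0025).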

How the data were processed

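Polyadenylated RNA of 6 samples, 3 per group, was sequenced after library preparation with the NEBNext Ultra kit, per the labels' protocols. The authors deposited expected counts of exon reads per gene, in steps of 0.5 and not adjusted for library size, with 1 RefSeq transcript and its exon length for each gene. The submitters' processing notes name mm10, STAR, HOMER and DESeq2, with no role or version. Strand use and duplicate removal are not given in the sources used here. Columns were given to groups by name. Titles carry letters and columns numbers, with no key, so libraries are called by column number. PCR duplicates may be counted, so limits cover counting error only.

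Counts were rounded and tested over the whole table in R 4.3.3, using edgeR 4.0.16 and, for voom, limma 3.58.1: TMM scaling, filterByExpr (minimum count 10, minimum total 15), a two-sided quasi-likelihood test with 4 residual degrees of freedom and Benjamini-Hochberg adjustment over 11286 genes, threshold 0.05. CPM use column totals without TMM. Exon overlaps come from GENCODE M21 (mm10) and upstream sequences from RefSeq (GRCm38.p6, 6 of 10 genes matched by symbol). The fit was tested on simulated data. The named genes are the 10 members, list genes past the threshold whose mean reached 1 CPM, and the 3 profiles nearest to Cxcl12. The members and lists were chosen with earlier results of these data known. Alternatives were other scalings, filters, thresholds, DESeq2 1.42.0, limma-voom, a replicate block, counts divided by 6 and leaving out each library. DESeq2 without a filter, DESeq2 on counts divided by 6 and the short Cxcl12 transcript were added after seeing the data. Ratios, which were not among the planned tests, were tested by exact permutation of the 6 libraries.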

Additional observations from a re-analysis of the deposited data

How the results depend on the processing

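The falls of Cxcl12 and Ccl7 passed the test in every alternative run, and Ccl2, Cxcl1, Cxcl16 and Cx3cl1 passed in none that gave them a value. Cx3cl1 had no value in edgeR or DESeq2 on counts divided by 6. Cxcl10 kept its direction throughout. Cxcl16 changed sign without OCA+VIP library 1, with a range of -0.12 to 0.0039 over left-out libraries. Of the 10 members, 2 to 3 were called on leaving out single libraries. Over all genes, 737 to 1478 were called on leaving out 1 library (877 when this was the first DMSO+VIP library, 737 for OCA+VIP library 1 and 751 for OCA+VIP library 3), 648 at 0.01, 2244 by DESeq2 without a filter and 508 by DESeq2 on counts divided by 6, against 1328. DESeq2 without a filter called 1 other ligand (Ccl27a), 1 other receptor (Ccrl2) and 5 signalling genes; 4 signalling genes passed at 0.1, and 1 to 4 without single libraries. Of the inducers, 2 passed at 0.01 and 2 in DESeq2 on counts divided by 6, and 2 to 5 without single libraries. The cause was not tested. With the column number as a replicate block, edgeR called 1118 genes, the same 3 members and 3 inducers, losing Ifnar2 and Rela. Deviations of same-numbered libraries had r of -0.035, -0.050 and 0.030, and those of other pairs -0.031 to 0.078. The numbers thus show no pairing in these values, and a shared animal or preparation was not tested. As TPM, Cxcl12 was at 634 and 253 with vehicle and OCA, and on its short transcript at 803 and 312 CPM per kb, with a ligand sum of 1185 and 599 CPM per kb and a Cxcl12 share of 67.7% and 52.0%, by construction. Depth limits Cxcr4, Ackr3 and Cxcl5.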
